A study of Mus musculus with 2 samples.

Results

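Open chromatin at the ends of single genes was described in hepatic stellate cells of the mouse. The members are the 7286 peaks of replicate A that overlapped a peak of replicate B by at least 1 bp and lay within 1 kb of an end of exactly 1 protein-coding gene. An end is the start or the termination boundary of a gene in mm10. The members were 31.1% (95% Wilson interval 30.5 to 31.7) of the 23452 peaks of A that were found in both replicates, out of 36577 entries in the list of A. Another 1550 replicated peaks lay at ends of 2 or more genes, and 14616 lay at no gene end.

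The data were ATAC-seq peak lists, in which Tn5 transposase marks accessible DNA, from 2 libraries of 1 group, replicates A and B. The mice were of strain C57BL6/JBomTac, fed chow and labelled healthy. Both libraries carried the mCherry-Rpl10a allele at Gt(ROSA)26Sor together with the transgene Tg(Lrat-cre)1Rshw. Nuclei of the liver were sorted by their mCherry-RPL10A signal. Cre is driven by Lrat sequences in this transgene, so the mark follows cells in which these were active at some time. The age and sex of the mice are not in the labels used here, and no label says that A and B are separate animals, and their spread may be only technical. The labels call both libraries control, but peaks of B carry names that start with a word meaning oil; the labels were followed. With 1 group there was no comparison between conditions and no p-value. Peak lists hold no read counts, so depth is unknown, and all intervals cover counting error only.

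Hepatic stellate cells store vitamin A and line the liver sinusoids as pericytes, and in injury they become the matrix-producing cells of fibrosis. At an active promoter the nucleosome just upstream of the transcription start is displaced, which leaves a short stretch of DNA open to transcription factors and to Tn5. Many mammalian promoters lie in CpG islands and serve genes that most cells use, whereas the genes that set cell types apart are often controlled by open regions farther away.

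The promoters below show the DNA at some of the strongest members, and parts of the Hsd17b7 and Lrat promoters lie outside the peak. For 6 of them, each is the best-ranked member holding one or more of the searched motifs, and Lrat is shown because its promoter sequences drive the recombinase of the transgene. Each run is the 250 bases before the annotated start, 5′ to 3′ on the strand of the gene, from RefSeq on GRCm38.p6. Capitals mark matches to the searched motifs on either strand.

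Cep128 (chr12:91384410-91384659, minus strand): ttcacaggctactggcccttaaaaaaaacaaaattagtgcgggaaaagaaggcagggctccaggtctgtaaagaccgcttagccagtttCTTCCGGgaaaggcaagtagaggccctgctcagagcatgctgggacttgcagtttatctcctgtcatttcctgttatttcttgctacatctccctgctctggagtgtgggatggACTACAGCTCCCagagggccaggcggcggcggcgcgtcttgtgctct
Ip6k1 (chr9:108002398-108002647, plus strand): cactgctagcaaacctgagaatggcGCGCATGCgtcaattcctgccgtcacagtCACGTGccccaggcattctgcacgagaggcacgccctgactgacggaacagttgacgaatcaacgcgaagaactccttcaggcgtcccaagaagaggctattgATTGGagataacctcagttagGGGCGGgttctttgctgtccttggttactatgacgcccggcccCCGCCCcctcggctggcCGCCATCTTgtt
Mitf (chr6:97806808-97807057, plus strand): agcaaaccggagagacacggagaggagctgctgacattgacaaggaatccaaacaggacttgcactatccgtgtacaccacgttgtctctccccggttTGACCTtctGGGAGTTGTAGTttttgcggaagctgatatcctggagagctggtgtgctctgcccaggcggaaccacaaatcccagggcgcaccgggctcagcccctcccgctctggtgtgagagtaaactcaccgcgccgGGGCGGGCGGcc
Aplf (chr6:87672162-87672411, minus strand): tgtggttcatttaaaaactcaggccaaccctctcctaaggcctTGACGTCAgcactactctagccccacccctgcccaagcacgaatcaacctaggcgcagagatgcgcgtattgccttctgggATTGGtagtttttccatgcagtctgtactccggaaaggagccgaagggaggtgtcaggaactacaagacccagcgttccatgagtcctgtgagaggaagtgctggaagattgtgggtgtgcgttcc
Sel1l (chr12:91849158-91849407, minus strand): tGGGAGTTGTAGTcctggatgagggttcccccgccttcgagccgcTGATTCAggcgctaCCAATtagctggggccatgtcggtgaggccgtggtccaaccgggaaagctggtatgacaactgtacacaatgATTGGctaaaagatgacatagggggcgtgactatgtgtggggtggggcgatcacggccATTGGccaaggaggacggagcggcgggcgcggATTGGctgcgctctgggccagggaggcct
Hsd17b7 (chr1:169969206-169969455, minus strand): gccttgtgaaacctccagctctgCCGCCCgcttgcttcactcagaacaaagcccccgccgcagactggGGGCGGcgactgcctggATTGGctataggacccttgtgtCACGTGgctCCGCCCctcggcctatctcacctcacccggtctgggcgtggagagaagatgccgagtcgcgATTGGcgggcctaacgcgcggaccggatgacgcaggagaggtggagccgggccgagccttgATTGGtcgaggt
Lrat (chr3:82903975-82904224, minus strand): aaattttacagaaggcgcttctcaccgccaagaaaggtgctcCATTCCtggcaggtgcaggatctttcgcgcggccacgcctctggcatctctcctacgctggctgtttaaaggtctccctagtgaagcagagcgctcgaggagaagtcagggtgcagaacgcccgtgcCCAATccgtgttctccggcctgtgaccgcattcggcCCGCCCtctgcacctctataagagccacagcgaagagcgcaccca

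In Cep128, a centrosome gene, the capitals mark 1 ETS core and, nearer to the start, a run of ACTACA followed after 2 bases by TCCC. Mitf, which encodes a transcription factor of melanocytes and other lineages, holds that run on the other strand. It also holds 2 GC boxes and 1 nuclear receptor half-site. Sel1l encodes a subunit of the machinery that clears misfolded proteins from the endoplasmic reticulum. Its promoter holds 4 CCAAT boxes, read as ATTGG on the other strand in 3 cases, 1 AP-1 match and also the ACTACA run. Hsd17b7, an enzyme of cholesterol and steroid synthesis, holds 3 CCAAT boxes, 3 GC boxes and 1 E-box. Aplf, a DNA repair factor, holds 1 CCAAT box and 1 match to the CREB and ATF motif. Ip6k1, an inositol phosphate kinase, holds 2 GC boxes and single matches to the NRF1, YY1, E-box and CCAAT motifs. Lrat, the enzyme that esterifies retinol for storage, holds 1 CCAAT box, 1 GC box and 1 TEAD match. The TEAD match lies in the part of the run that the Lrat peak does not cover. A match is a description of the letters and does not show that a factor was bound.

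The members were stronger than replicated peaks away from gene ends in both libraries, and slightly wider. Strength is the fold enrichment over local background that the authors' peak caller gave, and it is used here within each list. Its median was 14.3 in A (quartiles 10.5 and 18.4, range from 4.31 to 34.8) and 12.9 in B (quartiles 9.67 and 16.6). Replicated peaks at no gene end had medians of 10.8 in A and 9.40 in B, so the ratio of medians in A was 1.31. Peaks at the ends of 2 or more genes had 15.0 and 13.3, close to the members. Median width was 282 bp in A and 268 bp in B for the members, against 258 bp and 230 bp away from gene ends. Both libraries thus had the same order for strength and for width, with wide overlap between the classes.

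**Figure D1:**
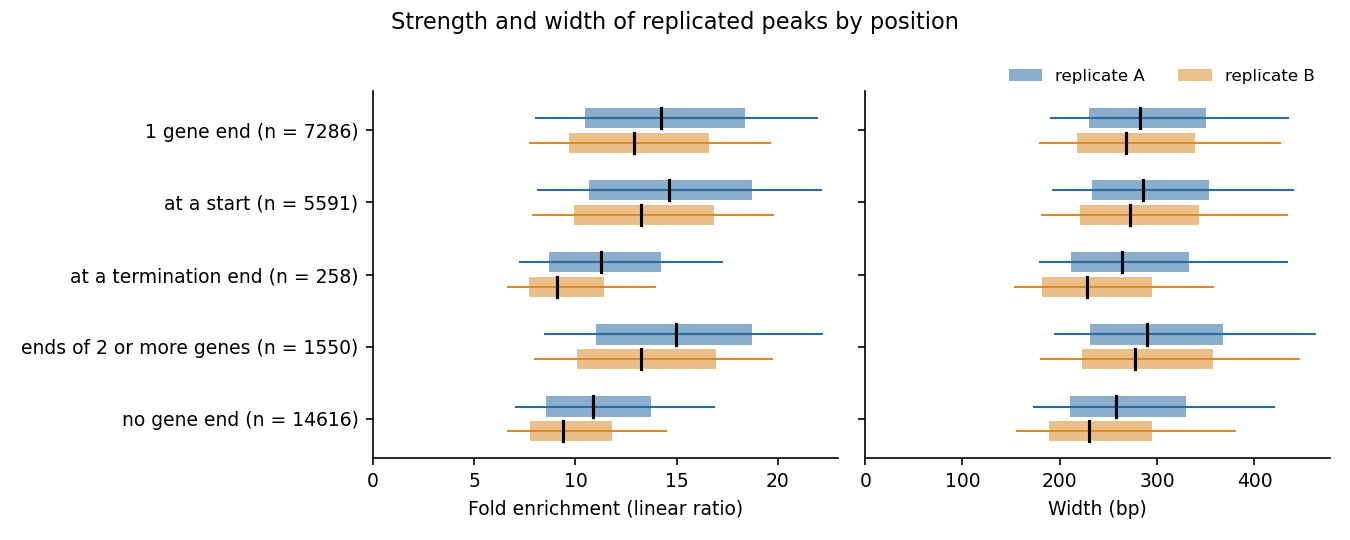
Fold enrichment (left, linear ratio) and width (right, bp) of replicated peaks by position, for replicates A and B. Boxes span the quartiles, black lines are medians and thin lines run from the 10th to the 90th percentile. Peaks at the end of 1 gene have a median fold of 14.3 in A, against 10.8 at no gene end, and those at a termination end have 11.3.

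The strong tail of both lists was rich in members. Of the members, 333 (4.57%, interval 4.11 to 5.07) were among the 1000 highest folds of both lists, against 73 (0.499%) of the 14616 peaks at no gene end. The share was 5.68% (4.63 to 6.94) for peaks at the ends of 2 or more genes, so it was not particular to the members. Wide peaks were less tied to position, since 378 members (5.19%) and 4.34% of the peaks at no gene end were at least 500 bp wide. No member reached 1000 bp. Strength rose with width up to a point. The median fold in A was 6.81 for the 140 members of 150 bp, 13.5 for the 3268 members of 201 to 300 bp and 17.7 for the 2012 of 301 to 400 bp, and it was 16.2 for the 374 wider than 500 bp. Across the 7286 members Spearman's rho between fold and width in A was 0.566, where both values come from the same library and the same caller.

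The replicates ranked the members alike. Across the members, log2 fold enrichment in A and B had a Pearson r of 0.743 and a Spearman rho of 0.756, against a rho of 0.568 across peaks at no gene end. These are descriptions across peaks that share 2 libraries. The fold in B was a median 0.917 times that in A, and it was higher in B for 2561 members (35.1%). Summits lay at most 50 bp apart in 5897 members (80.9%). Of the members, 58 shared their B entry with another member, because 1 wide peak of B spanned more than 1 peak of A.

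**Figure D2:**
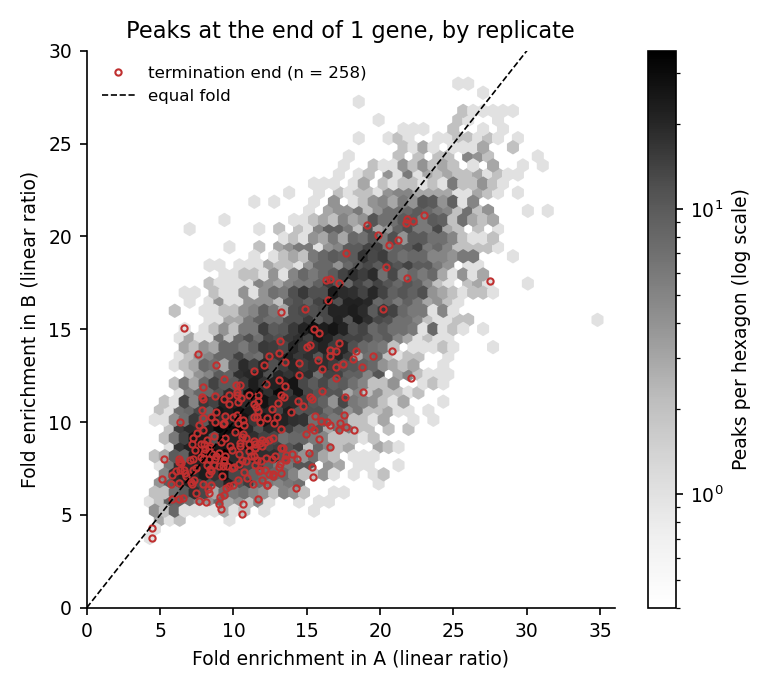
Fold enrichment of each member in A (horizontal, linear ratio) and B (vertical, linear ratio). Grey hexagons count all 7286 members on a log scale, red circles are the 258 at a termination end, and the dashed line marks equal fold. Most hexagons lie below the dashed line, since the fold was higher in B in 35.1% of members.

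Peaks at gene ends were also found again more often. In A, 82.8% (interval 82.0 to 83.6) of the peaks at the end of 1 gene overlapped a peak of B, against 56.2% (55.6 to 56.8) of those at no gene end. In B the shares were 90.1% and 77.3%. Replication went with strength, so the comparison was repeated within deciles of the fold in A. In the weakest decile the shares were 45.9% and 30.6%, in the fifth decile 74.6% and 54.2%, and in the strongest 99.7% and 95.7%. The share was higher at gene ends in all 10 deciles of A. In B the weakest decile gave 59.5% and 55.1%, and the ninth gave 98.97% and 99.2%, the one decile of B in which the order turned.

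Nearly all members whose gene has a known strand were at the start. The strand came from the RefSeq promoter table, which lists 17492 of 21887 protein-coding genes (79.9%), and 1399 members belonged to genes it does not list. Another 38 members had both ends of a short gene in reach. Of the remaining 5849, 5591 (95.6%, interval 95.03 to 96.1) were at a start and 258 at a termination end. Start members had a median fold of 14.6 in A and 13.3 in B, and termination members had 11.3 and 9.08, close to the level away from gene ends. A start member covered the annotated end in 4085 cases (73.1%), whereas a termination member did so in 22 (8.53%) and otherwise lay inside the gene (43.8%) or beyond it (47.7%). An end of a noncoding gene was also in reach of 873 start members (15.6%) and of 11 termination members (4.26%).

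The summits sat just upstream of the annotated start. Among 5370 start members whose summit in A lay within 1000 bp of an annotated start of their gene, 79.7% had it before the start, at a median position of -59 bp (quartiles -112 and -14). In 3682 (68.6%) it lay within 200 bp before the start. Strength varied with this position. Members with the summit 150 to 200 bp before the start had a median fold of 18.02 in A and 15.7 in B, those within 50 bp before it had 14.3 and 12.9, and those 300 to 500 bp inside the gene had 10.2 and 10.3. Median width was greatest in A for summits 200 to 300 bp before the start, at 409 bp, and in B for those 150 to 200 bp before it, at 379 bp.

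**Figure D3:**
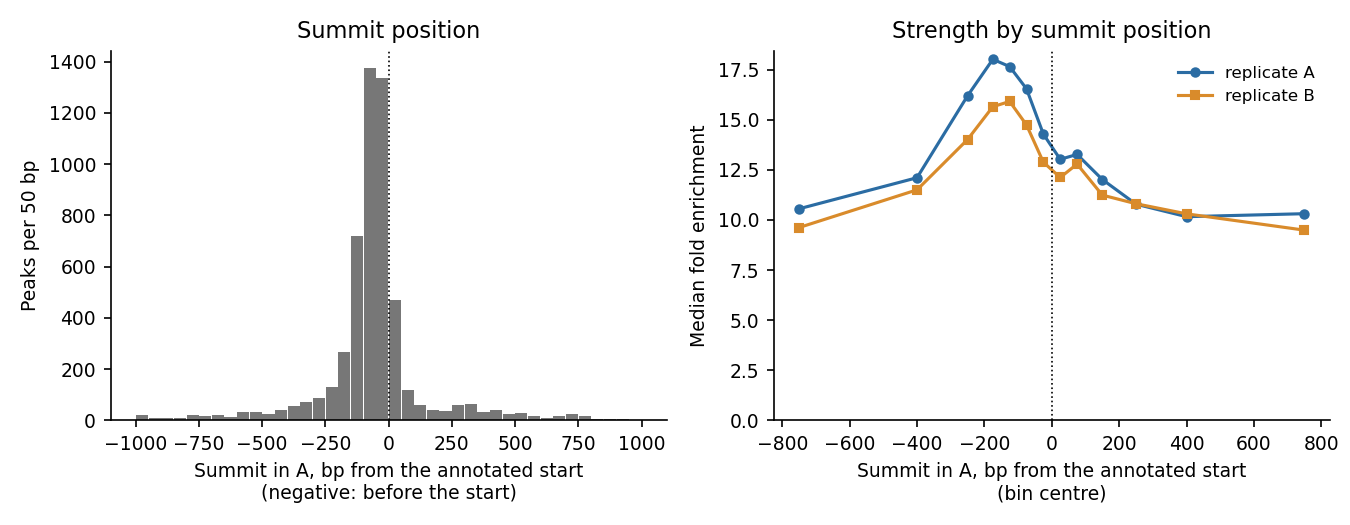
Left, number of start members per 50 bp by the position of their summit in A relative to the annotated start (bp, negative before the start). Right, median fold enrichment in A and B by the same position, at the centre of each bin. The summits peak in the 100 bp before the start, and the fold is highest 100 to 200 bp before it.

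Distance from the gene end showed the same fall. The 5102 members that covered the end had median folds of 15.6 in A and 14.1 in B. At 1 to 250 bp from it the 858 members had 11.7 and 11.1, and at 751 to 1000 bp the 299 members had 10.8 and 9.76. Across the limit of the rule, the 106 members at 901 to 1000 bp had 10.6 in A and 9.47 in B, with median widths of 248 bp and 237 bp. The 100 replicated peaks just outside, at 1001 to 1100 bp, had 10.5 and 10.1, with widths of 254 bp and 234 bp.

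The members marked 6678 of 21887 protein-coding genes (30.5%), and 9180 genes (41.9%) had a replicated peak at an end when peaks shared between genes were also counted. These shares are the background for all gene groups below. One member was found at 6097 genes, 2 at 555, 3 at 25 and 4 at 1. Short genes had few: 5.34% of genes up to 2 kb long had a member, 22.3% of those of 2 to 5 kb, 41.5% of those of 50 to 100 kb and 34.7% of those over 100 kb. By chromosome the share was 20.2% on X (195 of 966 genes) and 0.391% on Y (1 of 256). Among autosomes it lay between 24.0% on chromosome 7 and 36.8% on chromosome 18. Predicted or unnamed genes, whose symbols begin with Gm or end with Rik, were 2.44% of the genes with a member and 7.996% of all.

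The best-ranked members stood at genes of varied cellular tasks, and each of the first 10 covered the end of its gene. Trappc9, a subunit of a vesicle tethering complex, had 29.2 in A and 26.6 in B. Mitf had 28.3 and 26.7. Gins4, a part of the replicative helicase, had 28.2 and 26.2. These values are about double the medians of all members in both libraries. Aplf had 29.7 and 25.1, and Cep128 had 28.3 and 25.8. Pitrm1, a mitochondrial peptidase, had 27.5 and 26.7. Hsd17b7 had 29.3 and 24.9. The last 3 were Hltf, a helicase-like factor of DNA repair, Cdc25c, a phosphatase of mitotic entry, and Zmat2, a zinc finger protein of the spliceosome, with 27.6 to 30.5 in A and 24.4 to 25.4 in B.

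None of the 10 widest members was among the 10 best-ranked. Their folds ran from 10.6 to 19.3 in A and from 10.01 to 16.2 in B. Zbtb20, a transcriptional repressor gene, had the widest, 968 bp in A and 946 bp in B, with folds of 11.9 and 10.9. Ppm1b, a protein phosphatase, followed with 941 bp and 872 bp and a fold of 16.2 in both libraries. Rab40c, a RAB-like GTPase, had 879 bp and 955 bp, with folds of 19.3 and 12.6. The other 7 of the first 10 were at Mon1b, Garnl3, Ccdc9, Mgat1, Zfpm1, Hnrnpul1 and Gsk3b, from 810 to 875 bp wide in A. All 10 lay at starts. At Hnrnpul1 the 812 bp of A matched a peak of 393 bp in B, so that width did not carry over between the libraries.

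Zfp36l2, an RNA-binding protein that shortens the life of its target mRNAs, was the only gene with 4 members, and all were weak, from 5.22 to 9.22 in A and from 6.21 to 9.09 in B. Among the genes with 3, Wls, the carrier that brings Wnt proteins to the cell surface, had its strongest beyond the termination end, with 21.8 in A and 20.9 in B, against 12.9 and 12.7 at its start. Ppp2r5c, a phosphatase subunit, had 15.6 and 18.3 across its start and 18.2 and 13.4 beyond its termination end. Trf, the gene of plasma transferrin, had 3, from 7.75 to 15.2 in A. The others of the first 10 were Mospd3, Sugt1, Fads3, Sec22c, Itih3 and Fbxo30. At Fbxo30, 2 of the 3 shared 1 entry of B that was 662 bp wide.

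Members at a termination end were found at 157 genes that had none at the start, and 36 of these had a replicated peak of some class at the start. Among all members at a termination end, whether or not the start had one, the best-ranked were named after their values were seen. St3gal5, a ganglioside synthase, had 23.02 in A and 21.2 in B, and Raet1e had 22.3 and 20.8. Wls, given above, came next, and then Bcat2, a branched-chain aminotransferase, with 21.8 and 20.7. Lars2, the mitochondrial leucyl-tRNA synthetase, had 27.5 in A and 17.6 in B, so its rank differed between the libraries.

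Marker lists were set beside the label of the cells. They were chosen with earlier results of these data known, so they are not an independent check of it. Of 30 genes of stellate cell identity, 22 had a member (73.3%, interval 55.6 to 85.8), above the 30.5% of all genes. Such a share was not particular to them. It was 69.0% for housekeeping genes, 70.0% for immediate early genes and 76.5% for genes of TGF-beta and BMP signalling. Of the genes of Kupffer and other myeloid cells 0 of 26 had one, and of those of lymphocytes 0 of 26, each with an upper limit of 12.9%. Sinusoidal endothelial genes had members at 5 of 26, hepatocyte genes at 4 of 30, cholangiocyte genes at 2 of 20 and genes of other organs at 2 of 36. Defining stellate genes with a member included Lrat, Des, Reln, Hand2, Lhx2 and Ngfr, and Pdgfrb had none, though it had a replicated peak shared with an end of another gene; these were picked out after their values were seen. Among genes with a listed strand, some counted here only through a member at the termination end. These were Ecm1 and Vipr1 among stellate genes, Kdr among endothelial, Cyp2e1 among hepatocyte genes and Pomc among genes of other organs. Tgfb1 of the TGF-beta and BMP genes and Zfp36 of the immediate early genes were counted in the same way. The hepatocyte genes Ass1 and Tdo2 had a member across the start. Except for Cyp2e1, Ass1 and Pomc these genes were also picked out afterwards. Whether nuclei of those cells were in the sort was not tested.

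Members at stellate genes were weaker than most. The 26 members of the identity list had a median fold of 9.82 in A and 8.66 in B, and 24 of the 26 were below the median of all members in A, and 24 in B. Lrat had the strongest, 322 bp at chromosome 3, 82903841 to 82904162, with 15.6 in A and 16.1 in B. Hgf, the hepatocyte growth factor, had 15.1 and 11.3, and Sparc, a matrix-binding glycoprotein, had 12.7 and 12.9. At the transcription factor genes named above, Hand2 had 9.44 in A and 13.7 in B, and Lhx2 had 6.12 and 6.30. Rpl10a, the other gene of the transgenes, had 10.9 in A and 6.76 in B across its start. The peak lists do not tell a native gene from a transgene copy.

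Matrix genes showed the same combination of a frequent and weak member. Of 30 genes of matrix and fibrogenic activation 21 had a member (70.0%), with medians of 9.27 in A and 9.19 in B, and 21 of the 23 members were below the median of all members in each library. The collagen gene Col6a2 had 20.05 and 12.6, and Col1a2, which encodes a chain of type I collagen, had 13.8 and 14.95. Taking collagens as a family, 11 of 44 had a member, near the background. Acta2, Col1a1 and Postn were named after their values were seen, as genes of activated stellate cells without a member.

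Retinoid genes were nearer to the background. Of 22, 10 had a member (45.5%, interval 26.9 to 65.3), with medians of 13.3 in A and 10.1 in B. Aldh1a1, which oxidises retinal to retinoic acid, had 17.5 and 14.9. Rdh11, a retinal reductase, had 15.1 and 13.1. Lrat was the other of the first 3.

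Of 34 genes of TGF-beta and BMP signalling 26 had a member (76.5%, interval 60.0 to 87.6), with medians of 11.2 in A and 10.7 in B. Among receptors, Acvr2b, a type II activin receptor, had 20.9 and 16.1, and Tgfbr1, the type I TGF-beta receptor, had 17.5 and 17.1. Ski, a corepressor that restrains SMAD proteins, had 19.6 and 20.7 upstream of its start. Of 30 immediate early genes 21 had a member (70.0%), 31 members in all, with low medians of 8.67 and 9.09. Within that list Klf6, Gadd45b and Klf2 stood at 22.5 to 23.8 in A and 17.4 to 20.1 in B. Klf6 and Klf2 are zinc finger transcription factors and Gadd45b is a stress-induced regulator of kinase signalling. Btg2, Ier5 and Btg1 were also strong, with 17.7 to 21.1 in A and 16.5 to 18.4 in B. By contrast Fos and Junb had no member above 7.22 in A or 8.48 in B, and Fosb and Fosl2 none above 9.92 or 8.68. Other AP-1 genes were stronger, since Jun had a member with 14.3 in A and 14.05 in B, and Jund had 11.6 in both. These genes were chosen after their values were seen. AP-1 and ATF factors, a family that shares genes with this list, had a member at 18 of 25 genes (72.0%), and KLF and SP factors at 15 of 26 (57.7%).

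Groups of genes that most cells use had a member more often than all genes, and their medians lay around those of all members, 14.3 in A and 12.9 in B. Of 29 housekeeping genes 20 had one (69.0%), with medians of 14.4 and 12.7, and 13 of their 21 members were below the median of all members in B. Cytosolic ribosomal proteins had a member at 54 of 82 genes (65.9%, interval 55.1 to 75.2), with medians of 16.7 and 14.4. Translation factors had 45 of 71 (63.4%) and medians of 15.1 and 14.3, led by Eif3h with 26.1 and 26.2. RAB GTPases, which direct vesicle traffic, had 39 of 69 (56.5%), and their median of 17.8 in A fell to 12.6 in B, below that of all members. Rab30 led them with 30.9 and 23.8. Proteasome subunits had 28 of 51 (54.9%), with medians of 16.2 in A and 12.3 in B. DEAD and DEAH box helicases had 32 of 53 (60.4%), with 14.4 and 12.5. Ubiquitin enzymes had 56 of 93 (60.2%), with 13.01 and 12.89, so their median was below that of all members in both libraries. Subunits of RNA polymerase, mediator and general factors had 60 of 105 (57.1%), with 14.9 and 13.4. Splicing factors had 36 of 69 (52.2%), with 15.1 and 12.8, led by Sf3b5 with 29.2 and 23.5. In A all of these groups but the ubiquitin enzymes had a median above that of all members, and in B only the ribosomal proteins, the translation factors and the polymerase group did.

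For several such families the limit to ends of a single gene mattered. Mitochondrial ribosomal proteins had a member at 31 of 78 genes (39.7%) but a replicated peak of any class at 61 (78.2%). Respiratory chain subunits had 35 of 96 (36.5%) and 72, with Cox7c, a subunit of cytochrome c oxidase, at 26.9 and 23.1. Both sets of genes therefore often shared their open end with a neighbour. Histones rose from 15 of 102 (14.7%) to 38 (37.3%).

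The family with the most genes that had a member was that of the Zfp zinc finger genes, with one at 221 of 397 (55.7%, interval 50.7 to 60.5) and medians of 15.2 in A and 14.4 in B. Its first 3 were Zfp53 with 26.4 and 23.1, Zfp691 with 25.1 and 23.1, and Zfp267 with 27.9 and 21.1. Solute carriers, the membrane transporters, were at the background with 118 of 389 (30.3%). Several families rarely had a member: 16 of 143 ion channel genes (11.2%), 13 of 99 cytochromes P450 (13.1%), 2 of 39 HOX genes (5.13%), 1 of 53 keratins, 4 of 1110 olfactory receptors (0.360%) and 1 of 355 vomeronasal receptors had a member. Forkhead factors, with 15 of 44 (34.1%), and SOX factors, with 5 of 19 (26.3%), were near the background. How many tissues use each family was not measured. The 1 vomeronasal receptor, Vmn2r29, had a strong one, with 23.6 in A and 21.8 in B. Members of such multigene families can share reads with near-identical copies.

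**Figure D4:**
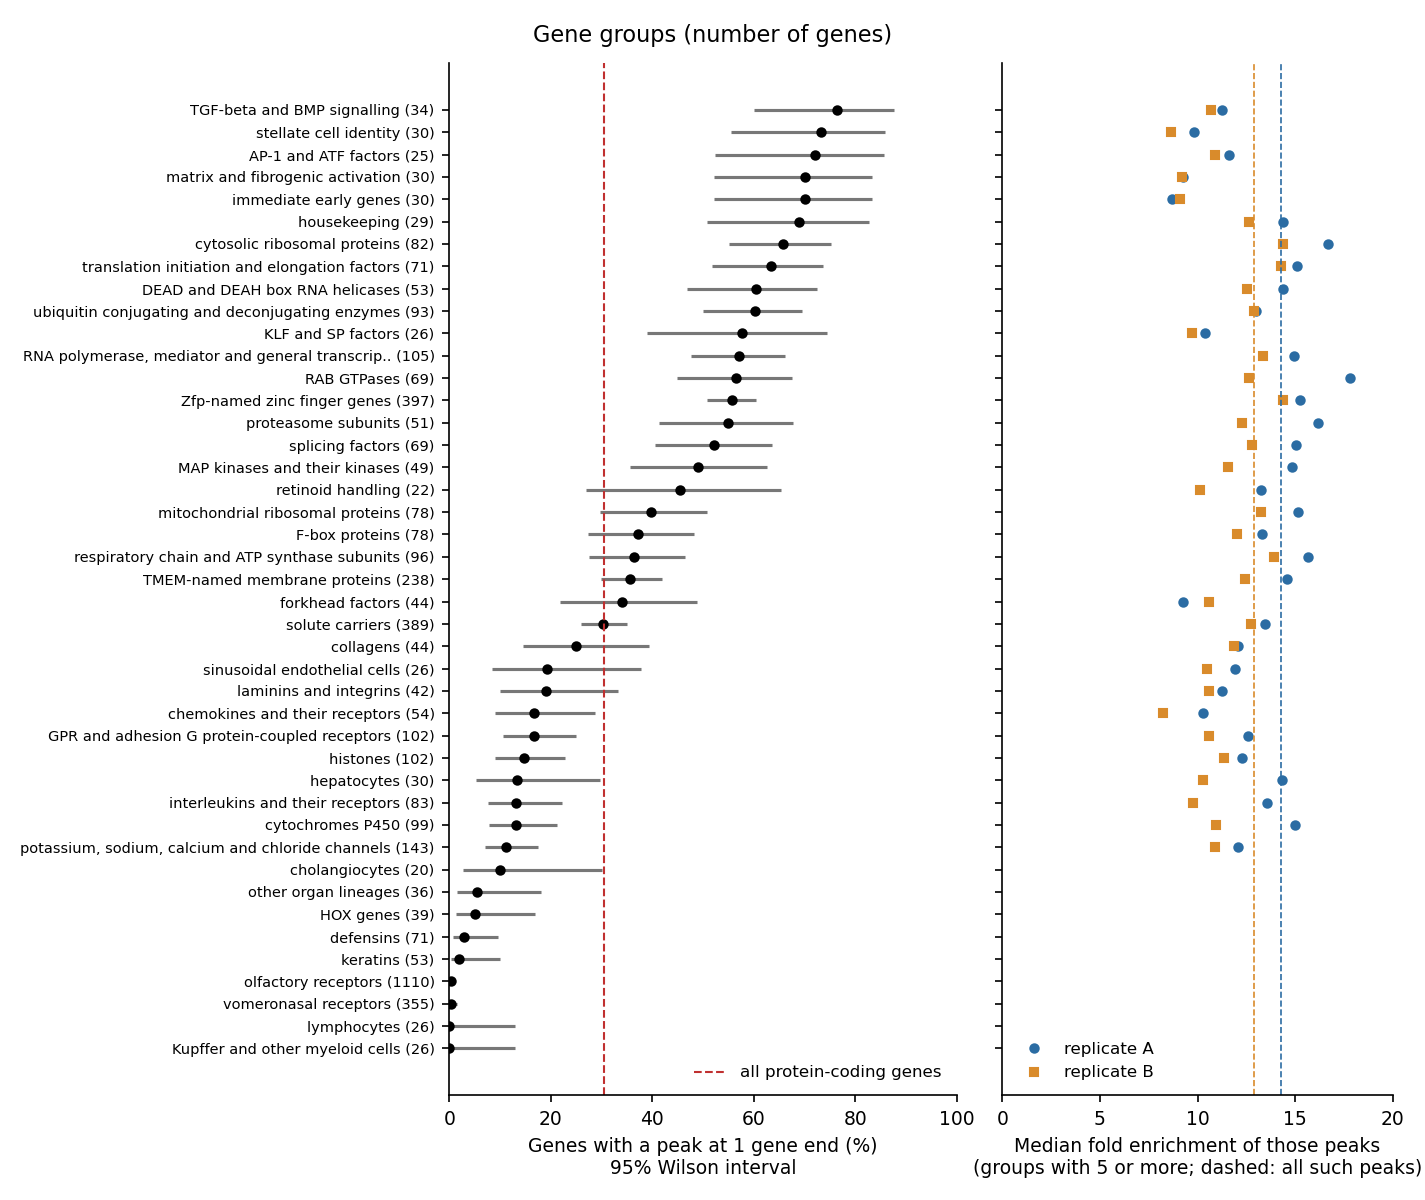
Left, share of genes with a member in each gene list or symbol family of at least 20 genes (percent, 95% Wilson interval), with the number of genes in brackets and the dashed line at 30.5% for all protein-coding genes. Right, median fold enrichment of those members in A and B for groups with at least 5, with dashed lines at the medians of all members. Stellate, matrix and immediate early genes combine a high share with a low fold, and ribosomal proteins combine a high share with a high fold.

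The promoters under members were rich in CpG. Of 21263 listed promoters of protein-coding genes, 5065 were overlapped by a member of their gene, 4159 by other peaks alone and 12039 by no peak of either replicate. The ratio of observed to expected CpG in the 250 bases before the start had a median of 0.771 under members, 0.783 under other peaks and 0.267 without a peak. It was at least 0.6 in 76.6%, 75.9% and 20.5% of these promoters. The values under members and under other peaks were thus close. The share of promoters with a member climbed from 2.10% at ratios below 0.2 to 25.3% at 0.4 to 0.6 and 43.02% at 0.8 to 1.0, and was 39.6% above 1.0. Fold followed less closely, with a median in A of 12.6 in the lowest class, 16.2 at 0.6 to 0.8 and 14.6 above 1.0. Promoters of stellate identity genes under a member were CpG-rich in 4 of 17 cases, against 36 of 43 for cytosolic ribosomal proteins. Other lists with median folds below those of all members did not share the low count of the stellate genes. CpG-rich were 12 of 13 for immediate early genes and 13 of 15 for TGF-beta and BMP signalling. For matrix genes it was 6 of 12 and for retinoid genes 4 of 7.

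The motif searches were run on both strands of the same 250 bases. The ETS core CCGGAAG was present in 16.5% of promoters under a member, in 2.92% of those without a peak and in 6.91% of all 32851 in the table. The GC box GGGCGG, read by SP and KLF factors, had 68.6%, 25.1% and 32.7%. The NRF1 motif GCGCATGC had 5.73%, 1.19% and 2.26%, and the CREB and ATF motif TGACGTCA had 3.20%, 0.880% and 1.55%. The CCAAT box, the motif of NF-Y, had 41.9%, 32.3% and 33.8%. The TATA motif TATAAA went the other way, with 5.01%, 16.9% and 12.4%, as did the AP-1 motif TGANTCA with 3.42%, 8.30% and 6.75%. Here and below, shares of the table also cover promoters of genes that are not protein-coding. Among the 21263 protein-coding promoters the shares were 8.98% for ETS, 42.6% for the GC box and 2.93% for NRF1. They were 1.92% for CREB and ATF, 35.4% for CCAAT, 11.6% for TATA and 6.13% for AP-1.

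In the 4159 promoters with other peaks alone most shares were near those under members: 17.4% for ETS, 4.57% for NRF1, 3.39% for CREB and ATF, 4.54% for TATA and 3.17% for AP-1. The GC box had 61.5% there and the CCAAT box 36.4%, both below the share under members.

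Further motifs differed less or were rare. The E-box CACGTG had 9.18% under members and 4.86% without a peak, against 6.02% of the table. The YY1 motif AAGATGGCG had 1.05%, 0.208% and 0.606%. The TEAD motif GGAATG had 10.0099%, 13.2% and 12.6%, the NFI half-site TTGGCA 9.30%, 13.5% and 12.3%, and the nuclear receptor half-site AGGTCA 9.14%, 15.5% and 14.0239%. In promoters under other peaks these 5 motifs had 8.66%, 1.80%, 9.38%, 8.30% and 9.28%, so the YY1 share was higher there than under members. The LIM homeodomain motif CTAATTAG was in 8 promoters under a member. The reverse of the CCAAT box, ATTGG, can overlap the NFI half-site. Base composition moved with several of these values. Among CpG-rich promoters alone, with 3880 under a member and 2473 without a peak, ETS had 18.2% and 6.47%, the GC box 74.5% and 64.7%, CCAAT 40.7% and 23.9%, and TATA 4.28% and 7.36%. AP-1 had 2.91% and 3.88% there, a smaller gap than the 3.42% and 8.30% without the CpG limit. The NFI half-site turned direction among CpG-rich promoters, with 8.48% and 6.79%. Shares were close to each other with 9.02% and 9.02% for TEAD, 7.96% and 8.13% for the nuclear receptor half-site and 10.4% and 9.34% for the E-box.

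Among the members, the motif whose share moved most with strength, in percentage points, was the CCAAT box. By quartile groups of fold in A its share was 30.3%, 33.8%, 45.3% and 58.2% from weakest to strongest, and by quartile groups of fold in B it was 30.2%, 37.6%, 44.9% and 54.98%. Over the same quartile groups of A the ETS share was 13.5%, 17.8%, 17.8% and 16.9%. Counting boxes, the 2942 promoters with none had a median fold of 14.3 in A and 13.1 in B, the 1209 with 1 had 16.1 and 14.3, the 612 with 2 had 18.2 and 16.1, and the 209 with 3 had 19.8 and 17.03. The 93 with 4 or more had 19.8 and 16.6, so the medians did not rise further. The step was present in CpG-rich promoters, with 17.4 for holders and 14.6 for the others in A, and in CpG-poor ones, with 16.3 and 13.3. Width moved with it too, from a median of 282.5 bp with no box to 419 bp with 4 or more.

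The run of ACTACA, 2 bases and TCCC, known from binding sites of the zinc finger protein ZNF143, was added after the printed promoters had been seen. The printed promoters that hold it, Cep128, Mitf and Sel1l, were picked for their high rank in fold. Its shares by strength and rank are thus not independent of how it was found, and its link with strength was not tested. It was in 276 promoters under a member (5.45%), in 4.91% of those under other peaks, in 24 of the 12039 without a peak (0.199%) and in 1.67% of the table. Its share by quartile groups of fold in A was 2.92%, 3.79%, 5.61% and 9.48%, and holders had median folds of 18.2 in A and 15.6 in B, against 15.3 and 13.9. Of the 100 best-ranked members with a listed promoter, 23 held it, 71 held a CCAAT box and 72 a GC box. Among Zfp genes 41 of 203 promoters under a member held the run, and 110 held a CCAAT box.

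**Figure D5:**
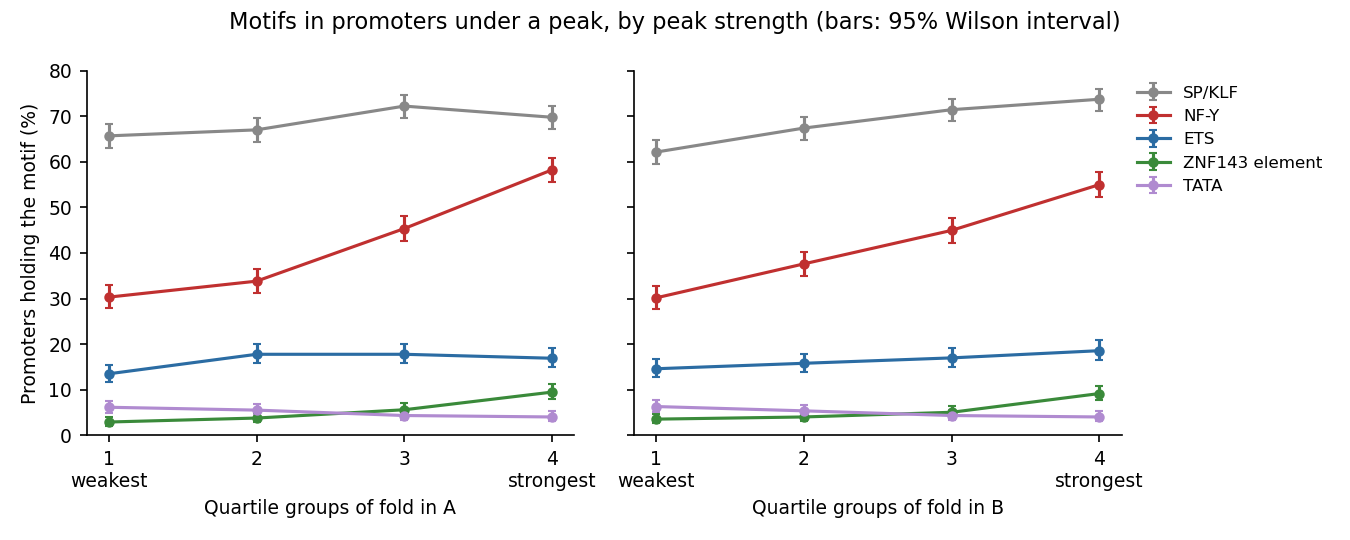
Share of promoters under a member that hold each motif (percent, 95% Wilson interval), by quartile groups of fold enrichment in A (left) and B (right). The CCAAT share (NF-Y) climbs from 30.3% to 58.2% over the quartile groups of A and from 30.2% to 54.98% over those of B, while the ETS and TATA shares move little.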

How the data were processed

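Each library has 1 headerless peak list in mm10. Per the submitters' processing notes, HOMER, MACS2, bedtools, Picard, SAMtools and STAR 2.7.0 were used, in unstated roles. A shift of reads for Tn5, the filters on the lists and the role of a single-cell kit named in the label text are not given in the sources used here. Deposited by the authors with each peak is a fold enrichment, a linear ratio. They also deposited a score and the −log10 p and −log10 q of their caller (−log10 q of 3.04 or more in A). The deposited lists give the summit as an offset from the start of the peak.

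Coordinates are 1-based. Gene spans and promoters came from RefSeq tables of GRCm38.p6, the assembly that mm10 shares; exons were not used. Each member took its values in B from the entry of B with the largest overlap. Shares have 95% Wilson intervals. The 12 gene lists, 32 symbol families, 13 motifs and the members themselves were chosen with earlier results of these data known. Of 30 symbols asked for in the housekeeping list, 29 matched. Genes are named by rule: the 10 members with the best mean rank of fold over A and B, the 10 widest in A, the 10 genes with most members, up to 3 genes with the strongest member in a group, and Lrat and Rpl10a. Printed promoters are at most 6 best-ranked holders of a motif, without chromosome 18, and Lrat. Alternatives were a reciprocal overlap, other windows, stricter peaks, single libraries and other sets of genes. Overlap, classes and motif search were tested on simulated data. The tools were matplotlib 3.10.9, scipy 1.17.1, pandas 2.3.3, numpy 2.4.6 and Python 3.11.15.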

Additional observations from a re-analysis of the deposited data

How the results depend on the processing

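With 1 group and no depth, strength could be described but not tested. No paired analysis was possible because there is only 1 group. The direction of the difference in fold between members and peaks at no gene end held under every alternative tried. The number of members was 3579 among the 10000 strongest entries per replicate and 8092 to 8797 with 1 replicate left out. Their share of the peaks was 31.9% with a reciprocal overlap of 50%, 29.3% and 33.0% with windows of 500 and 2500 bp, 50.9% with the 10000 strongest entries, 42.4% with entries above the median −log10 q, and 24.1% to 28.1% with 1 replicate left out. For the strongest entries, those above the median −log10 q and 1 replicate left out in turn, the median fold was 18.3, 16.6 and 12.2 to 12.8. The median width was 326, 310 and 257 to 264 bp. The ratio of median folds between members and peaks at no gene end was 1.11, 1.21 and 1.39 for both single replicates. The share of genes with a member was 16.3%, 22.0% and 32.8% to 34.9%. That share was 29.6% with reciprocal overlap and with the 500 bp window, 32.3% among the genes with an end free of other ends within 2 kb, and 41.9% when peaks at ends of more genes counted. The rise in CCAAT share from the weakest to the strongest quartile group, 27.9 percentage points by fold in A, was 24.8 by fold in B and 28.1 with 1 promoter per peak, both chosen after seeing the data.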
